A study of Mus musculus with 7 samples.

Results

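The comparison described here sets libraries whose genotype field names a knockout of the Meteor promoter against libraries whose genotype field names wild type, and takes 4 of the 7 libraries of the series, 2 a side. Members were chosen by that field alone. All 4 carry titles that say the opposite. The field knockout libraries are titled WT1 and WT2, and the field wild-type libraries are titled pKO2 and pInv, of which the last title matches the promoter inversion named in the series' design. In all, the field and the title conflict in 5 of the 7 libraries, and nothing in the labels settles which of them is right. A side is therefore called "field knockout" or "field wild type" below, and each library keeps its title. If the titles were right, every direction between these 4 libraries would turn round. The side titled pKO2 and pInv would then hold a promoter knockout and an inversion, and the library titled pKO1 would belong with it. Values of a side are given in the order WT1, WT2 for the field knockout and pKO2, pInv for the field wild type.

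All libraries were polyadenylated RNA of embryoid bodies, the aggregates that mouse embryonic stem cells form in suspension, grown from the R1 embryonic stem cell line, started as hanging drops of 500 cells in 27 µl and collected on day 4. The 3 libraries outside the comparison are titled pKO1 (field: promoter inversion), Ctrl (field: empty vector) and KD1 (field: knockdown of Meteor with dCas9). They entered the fit and are used here to place the 4. The labels do not state whether the libraries of a side came from separate clones or separate cultures, so the p-values measure the spread between these libraries, which may be technical.

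Meteor is a long non-coding RNA locus that the title of the series connects with the level of Eomes. Eomes is a T-box transcription factor that switches on mesoderm and definitive endoderm genes in the primitive streak, the region of the gastrulating embryo where pluripotent epiblast cells leave the epithelium. Embryoid bodies pass through a similar state, in which the T-box gene T, the homeobox gene Mixl1 and the mesoderm factor Mesp1 come on while Pou5f1, a core factor of pluripotency, is still expressed.

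Library totals were 2564478 and 1898350 expected counts in the field knockout libraries, against 2400373 and 2260792 in the field wild-type libraries. Levels are given as CPM, counts scaled to a common library size with TMM factors, which correct for composition. With 0 counts, a gene could still have had up to 1.12 and 1.80 CPM in the field knockout libraries and up to 1.23 and 1.27 CPM in the field wild-type libraries (3 counts per library, counting error only). Markers of the state of the embryoid bodies were detected in all 4 libraries, but not at like levels. Pou5f1 had 1359 and 2188 CPM in the field knockout libraries, against 1721 and 1625 CPM in the field wild-type libraries. T, Mixl1 and Mesp1 were far lower in WT2, at 54.6, 7.20 and 10.8 CPM. In WT1, pKO2 and pInv, T had 294, 353 and 178 CPM and Mixl1 99.0, 52.1 and 83.2 CPM. Mesp1 had 79.1, 127 and 82.3 CPM there.

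No feature was named as Meteor. The only feature of the tables that carries a symbol of its own, Platr11, bears the name of a long non-coding RNA gene that RefSeq places upstream of Eomes on chromosome 9 in GRCm38. Whether that feature is the Meteor transcript is not given in the sources used here, and it was picked out after its values were seen. Platr11 had 9 and 2 counts in the field knockout libraries, against 0 and 0 counts in the field wild-type libraries. Exact 95% Poisson intervals ran from 4.12 to 17.1 counts and from 0.242 to 7.22 counts in the field knockout libraries, and a count of 0 allowed up to 3.69 counts in each field wild-type library. The feature was too low to enter the test. Its reads lay on the side whose field names the knockout, most of them in the library titled WT1. The libraries titled pKO1, Ctrl and KD1 had 0, 0 and 2 counts. These counts do not check the labels, because the identity of Platr11 is unknown and Ctrl, whose title and field agree, had 0 counts as well.

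Eomes (NCBI gene 13813) was measured well and did not separate the sides. It had 459 and 312 CPM in the field knockout libraries, against 445 and 390.0 CPM in the field wild-type libraries. The sides overlapped, since WT1 was the highest of the 4 libraries and WT2 the lowest. The means were 385 ± 104 CPM in the field knockout and 417 ± 38.7 CPM in the field wild type (SD, n = 2 each), a log2 difference of −0.11 (SE 0.32; edgeR's quasi-likelihood test, Benjamini-Hochberg adjusted p = 1). Without WT2 the log2 difference was 0.13, and without WT1 it was −0.42, so its direction rested on which field knockout library was kept. The non-coding gene 4933432G23Rik, which neighbours Eomes in RefSeq, also overlapped, at 85.1 and 167 CPM in the field knockout libraries, against 133 and 84.0 CPM in the field wild-type libraries. Of 15 tested genes on the list of the Eomes locus, 0 passed the test, 7 had a log2 difference above 0 and 8 below, and their median was −0.02.

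The 2 field knockout libraries were less like each other than any library of one side was like any library of the other. Distance was taken as the SD of log2 ratios of CPM + 1 over the 4648 features with a mean of 20 CPM or more. It was 0.733 between WT1 and WT2 (field knockout), against 0.509 between pKO2 and pInv (field wild type). Across the sides it was 0.467 for WT1 and pKO2, 0.380 for WT1 and pInv, 0.555 for WT2 and pKO2 and 0.691 for WT2 and pInv. The library nearest to WT1 was Ctrl (0.363), the nearest to WT2 was pKO2 (0.555), the nearest to pKO2 was Ctrl (0.413) and the nearest to pInv was WT1 (0.380). For none of the 4 was the nearest library its partner on the same side. WT2 stood apart from all other libraries, with 380 genes at least 2-fold below and 141 at least 2-fold above the median of the others, while WT1 had 13 and 8, pKO2 81 and 17, and pInv 18 and 26.

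**Figure D1:**
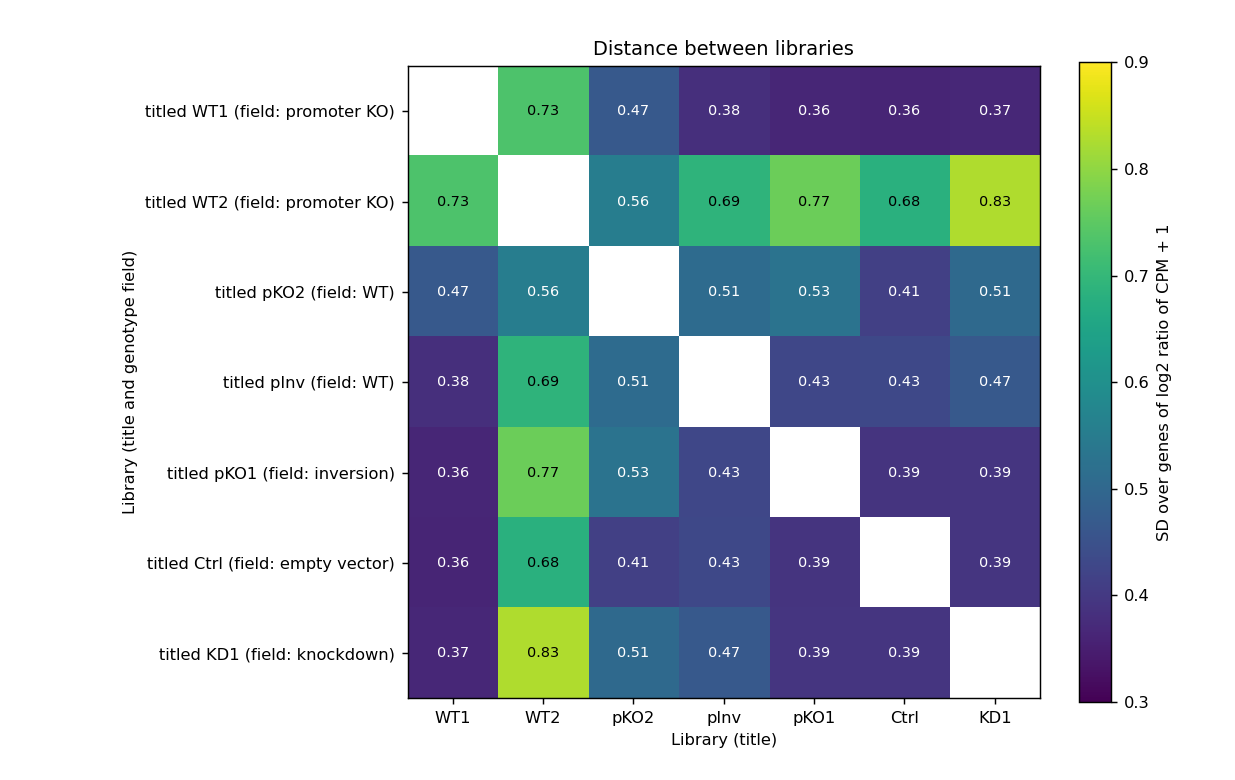
Distance between every pair of the 7 libraries, as the SD over 4648 genes of the log2 ratio of CPM + 1, with titles on both axes and the genotype field on the vertical one. The row of WT2 holds the largest distances, and WT1 and WT2, which share the field promoter KO, are 0.73 apart.

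The genes that parted libraries of 1 side show how large the spread within a side was. Tfap2c, a transcription factor of trophoblast and germ cell precursors, had 36.0 and 1.80 CPM in WT1 and WT2. Mixl1 had 99.0 and 7.20 CPM in the same pair, and Srf, a transcription factor of actin and immediate early genes, had 48.0 and 4.20 CPM. In the other direction, Morf4l1, a chromatin protein, had 11.2 and 63.6 CPM in WT1 and WT2, and Nefm, a neurofilament subunit, 30.7 and 104 CPM. Between pKO2 and pInv of the field wild type, Cfc1, a co-receptor of Nodal, had 58.3 and 3.82 CPM, and Cer1, a secreted Nodal antagonist, 98.9 and 13.6 CPM. H2ac13, a histone gene, stood at 178 and 14.4 CPM in the field knockout libraries, against 6.15 and 140 CPM in the field wild-type libraries. It parted the libraries of each side by more than the sides, and its low values were those of WT2 and pKO2. The libraries outside the comparison had 103 (pKO1), 123 (Ctrl) and 106 CPM (KD1). Cdk9, Mir703, Mir6367 and Eci3 were likewise lowest in WT2 and pKO2 among all 7 libraries, a pattern that crossed the sides. Cfc1, Cer1, Ifitm1 and Lhx1 went the other way, with pKO2 the highest of the 4 libraries and WT2 the lowest. The cause was not tested.

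No gene passed the test between the sides. Of 10265 genes tested, 0 had an adjusted p under 0.05 (0% called; edgeR's quasi-likelihood test, smallest Benjamini-Hochberg adjusted p = 1), and neither DESeq2 nor limma (voom, or log2 of TPM + 1) called any. An unadjusted p under 0.05 was reached by 87 genes in edgeR (0.848%), 41 higher in the field knockout (0.399%) and 46 lower (0.448%), and 20 in DESeq2, 70 in limma-voom and 123 in limma on TPM. The fit rested on 2 residual degrees of freedom. The calls moved with single libraries. Where 1 library is left out, the other of its side stands alone and is assumed to vary like the side that keeps 2, which alone supplies the residual spread. Without WT1, 24 genes were called, 23 of them lower, among them Frzb, Mesp1, Lhx1, Mixl1 and T. Without WT2, 2 were called, both copies of the 4.5S RNA gene Rn4.5s, and without pInv 2, a copy of Rn4.5s and Gstp1. Without pKO2, 0 were called. With all low counts kept, 7 were called among 16702 genes, 6 of them lower, and 3 of the 7 were copies of Rn4.5s.

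The genes that separated the sides were therefore taken by the gap between them, the ratio of the lowest CPM + 1 of the higher side to the highest CPM + 1 of the lower side. This is a description of 4 libraries and not a test. Among the 10265 tested genes the sides did not overlap in 1131 with the field knockout higher (11.0%) and in 1087 with the field knockout lower (10.6%). At a mean of 20 CPM or more these were 424 (9.12%) and 394 (8.48%) of 4648. A gap of 1.5-fold or more was left in 7 (0.151%), 3 with the field knockout higher (0.0645%; Cyth3, Egln3 and Gstp2) and 4 with it lower (0.0861%; Spin2d, Rian, 2210408I21Rik and Wdr76).

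The widest gap with the field knockout higher was that of Cyth3, an exchange factor for ARF GTPases that binds phosphoinositides at the membrane. Cyth3 had 29.2 and 35.4 CPM in the field knockout libraries, against 16.4 and 15.3 CPM in the field wild-type libraries. The gap was 1.74-fold and the log2 difference 0.98 (SE 0.35, unadjusted p = 0.02 and adjusted p = 1 in edgeR's test). The libraries outside the comparison had 18.2 (pKO1), 18.8 (Ctrl) and 23.1 CPM (KD1), all between the sides. Egln3, a prolyl hydroxylase that marks hypoxia-inducible factor for destruction and is itself induced by low oxygen, had 30.7 and 39.0 CPM in the field knockout libraries, against 16.4 and 17.4 CPM in the field wild-type libraries. Its gap was 1.72-fold and its log2 difference 1.0 (SE 0.35, unadjusted p = 0.0193 and adjusted p = 1 in edgeR's test). With 11.5 CPM in pKO1, 12.2 in Ctrl and 19.9 in KD1, the field knockout libraries were the 2 highest of all 7.

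The third gene with a gap of 1.5-fold was Gstp2, a glutathione transferase, at 62.6 and 101 CPM in the field knockout libraries, against 36.1 and 39.5 CPM in the field wild-type libraries. Its near-identical neighbour Gstp1 had 0 and 0 CPM in the field knockout libraries, against 28.7 and 0 CPM in the field wild-type libraries. Summed, the pair had 62.6 and 101 CPM in the field knockout libraries, against 64.8 and 39.5 CPM in the field wild-type libraries. The sum overlapped, so the separation of Gstp2 depends on how the estimate split reads between the copies.

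The next 9 genes had gaps from 1.36-fold to 1.46-fold. Arl2, a small GTPase of tubulin folding, had 19.1 and 37.2 CPM in the field knockout libraries, against 12.3 and 12.7 CPM in the field wild-type libraries. Myo19, a myosin that sits on mitochondria, had 20.99 and 38.4 CPM in the field knockout libraries, against 14.4 and 14.4 CPM in the field wild-type libraries. Gm12070 had the widest ratio of means of the 12, with a log2 difference of 1.59 (SE 0.53, adjusted p = 1 in edgeR's test), but also the widest spread, at 21.7 and 45 CPM in the field knockout libraries, against 15.2 and 5.52 CPM in the field wild-type libraries. Gins4, a subunit of the replicative helicase, had 36.7 and 38.4 CPM in the field knockout libraries, against 26.3 and 25.0 CPM in the field wild-type libraries. Ccnb2, a mitotic cyclin, had 34.9 and 30.6 CPM in the field knockout libraries, against 21.3 and 22.1 CPM in the field wild-type libraries. The most abundant of the 12 was Fem1b, a substrate receptor of a ubiquitin ligase, at 253 and 293.5 CPM in the field knockout libraries, against 180.1 and 185 CPM in the field wild-type libraries. The remaining 3 were Spg20, which encodes spartin, Ndufa3, a subunit of respiratory complex I, and Mrpl55, a protein of the mitochondrial ribosome, with log2 differences of 0.85, 0.52 and 0.61.

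The widest gap with the field knockout lower was that of Spin2d, an X-linked gene of the spindlin family of chromatin readers. It had 42.4 and 41.4 CPM in the field knockout libraries, against 99.3 and 95.5 CPM in the field wild-type libraries, with close agreement within each side. Its gap of 2.23-fold was the widest of the 24 genes named by this rule, and its log2 difference was −1.20 (SE 0.30, unadjusted p = 0.00323 and adjusted p = 1 in edgeR's test). Leaving out any 1 of the 4 libraries kept the log2 difference between −1.23 and −1.17. Reads of its relative Spin2c could be split with it, and the sum of both was 45.7 and 42.6 CPM in the field knockout libraries, against 102 and 96.3 CPM in the field wild-type libraries, which did not overlap. The other libraries fell on either side, with 123 CPM in pKO1, 116 in Ctrl and 27.7 in KD1.

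Rian, an imprinted non-coding RNA expressed from the maternal allele of the Dlk1-Dio3 cluster on chromosome 12, had 118 and 106 CPM in the field knockout libraries, against 208 and 203 CPM in the field wild-type libraries. The gap was 1.72-fold and the log2 difference −0.87 (SE 0.29, unadjusted p = 0.0153 and adjusted p = 1 in edgeR's test). All 3 other libraries were above the field knockout, at 246 (pKO1), 187 (Ctrl) and 301 CPM (KD1). Mir136, a microRNA gene of the same cluster, had 14.6 and 18.6 CPM in the field knockout libraries, against 32.4 and 26.7 CPM in the field wild-type libraries, where the value counts polyadenylated reads over the gene and not the mature microRNA. Not every transcript of the cluster separated. Meg3, measured as a feature merged with Mir770 and others, had 1451 and 4709 CPM in the field knockout libraries, against 3410 and 2884 CPM in the field wild-type libraries, and overlapped. Mirg, also merged with microRNA genes, had 83.2 and 144 CPM in the field knockout libraries, against 199 and 123 CPM in the field wild-type libraries, and overlapped too. Meg3 and Mirg were chosen after the values of Rian were seen.

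The other lower genes had gaps from 1.33-fold to 1.68-fold. The uncharacterised gene 2210408I21Rik had 20.6 and 12 CPM in the field knockout libraries, against 58.3 and 35.2 CPM in the field wild-type libraries, and 56.8 to 64.6 CPM in the 3 other libraries. Its log2 difference was −1.45 (SE 0.41, unadjusted p = 0.00592 and adjusted p = 1 in edgeR's test). Wdr76, a nuclear protein with WD repeats, had 15.0 and 15.6 CPM in the field knockout libraries, against 28.3 and 24.6 CPM in the field wild-type libraries. A pair of microtubule regulators followed. Stmn2, which destabilises microtubules, had 26.2 and 21 CPM in the field knockout libraries, against 39.4 and 45.4 CPM in the field wild-type libraries. Clip1, which tracks growing microtubule ends, had 25.9 and 29.4 CPM in the field knockout libraries, against 45.5 and 42.9 CPM in the field wild-type libraries. Tasor, a subunit of the HUSH silencing complex, had 16.9 and 13.8 CPM in the field knockout libraries, against 25.8 and 23.8 CPM in the field wild-type libraries. Fbxo11, a subunit of a ubiquitin ligase, Snx27, a sorting nexin of endosomes, and Wdr70 had log2 differences of −0.64, −0.60 and −0.50. Rn4.5s had 19.9 and 31.2 CPM in the field knockout libraries, against 82.1 and 42.4 CPM in the field wild-type libraries, and is uncertain because its reads are shared among 10 near-identical features. Their sum had 139 and 281 CPM in the field knockout libraries, against 828 and 382 CPM in the field wild-type libraries.

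**Figure D2:**
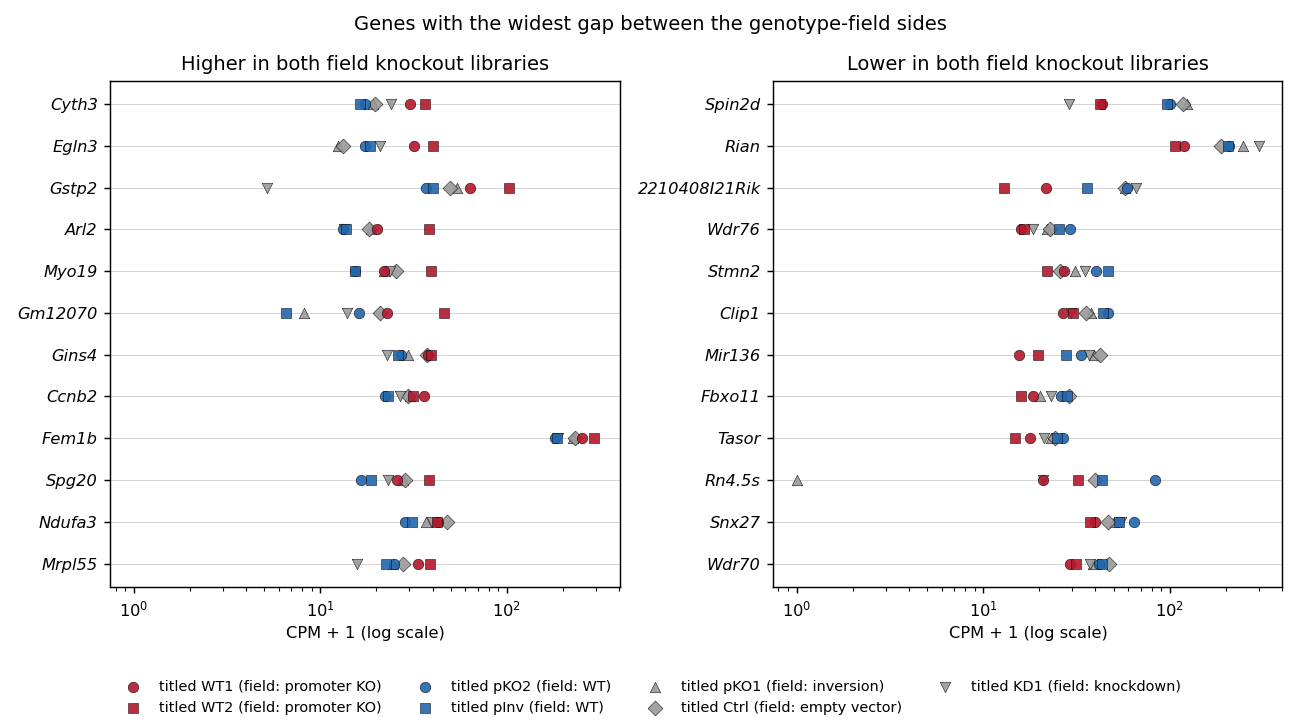
CPM + 1 on a log scale in each of the 7 libraries for the 12 genes with the widest gap in each direction, with the field knockout libraries in red, the field wild-type libraries in blue and the other libraries in grey. Spin2d, Rian and 2210408I21Rik show the field knockout libraries well below the field wild-type ones, and in most genes the grey symbols lie between the sides or with the blue ones.

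Of these 24 genes, the libraries outside the comparison leaned to the field wild type on the 12 lower ones. On the 12 higher ones KD1 leaned the same way, while pKO1 and Ctrl were mixed. For the 12 lower genes, pKO1 was nearer to the mean of the field knockout in 3 and to that of the field wild type in 9. For Ctrl these counts were also 3 and 9, and for KD1 4 and 8. For the 12 higher genes, pKO1 was nearer to the field knockout in 5 and to the field wild type in 7, Ctrl in 7 and 5, and KD1 in 3 and 9. The library titled pKO1, which shares its title with the field wild-type library pKO2, thus split on the higher genes.

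Of the 32 gene lists with 5 or more tested genes, the hypoxia and glycolysis list was the one whose median was above 0 in all 4 pairs of a field knockout with a field wild-type library. Cells short of oxygen stabilise hypoxia-inducible factors, which bind promoters and enhancers and raise glucose transport, glycolysis, lactate export and the prolyl hydroxylases that degrade the factors again. Of 34 listed genes 31 were tested and 0 passed. The log2 difference was above 0 in 29 and below 0 in 2 (Hk2 and P4ha1), where all tested genes gave 50.5% above and 49.0% below. The median was 0.41, against 0.00 over all tested genes. The 4 library pairs gave medians of 0.34 (WT1 minus pKO2), 0.41 (WT1 minus pInv), 0.29 (WT2 minus pKO2) and 0.56 (WT2 minus pInv). The sides did not overlap in 7 genes with the field knockout higher (22.6%, where all tested genes gave 11.0%) and in 0 with it lower. In bulk RNA, fewer cells of a type and less RNA per cell cannot be told apart.

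The 7 genes whose sides did not overlap were Egln3, described above, and the following 6. Egln1, the main prolyl hydroxylase, had 28.1 and 24.0 CPM in the field knockout libraries, against 18.1 and 20.8 CPM in the field wild-type libraries. Hk1, a hexokinase, had 17.99 and 28.8 CPM in the field knockout libraries, against 9.85 and 13.6 CPM in the field wild-type libraries (log2 difference 0.93, SE 0.41, unadjusted p = 0.0501 and adjusted p = 1 in edgeR's test). Pfkfb3, which makes the activator of phosphofructokinase, had 13.5 and 21 CPM in the field knockout libraries, against 10.3 and 10.2 CPM in the field wild-type libraries. Hk1 and Pfkfb3 stood in all 3 other libraries at or below 10.2 CPM, under both field knockout libraries. Pfkp, the platelet-type phosphofructokinase, had 19.1 and 44.4 CPM in the field knockout libraries, against 18.9 and 14.0 CPM in the field wild-type libraries, so that WT1 and pKO2 differed little. P4ha2, a collagen prolyl hydroxylase, had 18.7 and 36.0 CPM in the field knockout libraries, against 13.5 and 16.6 CPM in the field wild-type libraries. The angiogenic growth factor Vegfa was low, at 6.37 and 8.40 CPM in the field knockout libraries, against 6.15 and 2.55 CPM in the field wild-type libraries.

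Some abundant members overlapped. Aldoc, an aldolase, had 40.1 and 82.8 CPM in the field knockout libraries, against 19.7 and 40.3 CPM in the field wild-type libraries, with WT1 just under pInv. Slc16a3, the lactate exporter, had 321 and 729 CPM in the field knockout libraries, against 343 and 241 CPM in the field wild-type libraries. Gapdh had 1562 and 1528 CPM in the field knockout libraries, against 1055 and 1827 CPM in the field wild-type libraries, and its log2 difference was within its error. Slc2a3, a glucose transporter, had 194 and 66.0 CPM in the field knockout libraries, against 85.4 and 102.7 CPM in the field wild-type libraries.

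Members above both field wild-type libraries numbered 17 of 31 in WT1 (54.8%, where all tested genes gave 31.7%) and 17 of 31 in WT2 (54.8%, where all tested genes gave 34.8%). The same count was 6 in pKO1 (19.4%, where all tested genes gave 30.9%) and 7 in Ctrl (22.6%, where all tested genes gave 30.2%). In KD1 it was 10 (32.3%, where all tested genes gave 35.5%). Members below both field wild-type libraries numbered 3 in WT1 (9.68%, where all tested genes gave 29%). In WT2 there were 8 such members (25.8%, where all tested genes gave 38.1%). The median member stood 0.31 and 0.39 above its 7-library median on the log2 scale in the field knockout libraries, against 0.00 and 0.00 in the field wild-type libraries, and −0.14 in pKO1, −0.06 in Ctrl and −0.02 in KD1. Without WT1, 22 of the 31 were above 0 with a median of 0.29, and without WT2, 24 with a median of 0.37, both in edgeR's fit. With library totals in place of TMM, 25 were above 0 with a median of 0.34.

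Promoters are shown for 3 of the 7 genes whose sides did not overlap, as examples of the hypoxia response core in this list. They run from 250 bases before to 50 bases after the annotated start, read 5′ to 3′ on the gene's strand, from RefSeq with the build GRCm38.p6, and capitals mark ACGTG or GCGTG on either strand (CACGT or CACGC where the match is on the other strand). The Egln3 window is chr12:54203825-54204124 on the minus strand, the Pfkfb3 window chr2:11553880-11554179 on the minus strand, and the Hk1 window chr10:62340372-62340671 on the minus strand.
Egln3: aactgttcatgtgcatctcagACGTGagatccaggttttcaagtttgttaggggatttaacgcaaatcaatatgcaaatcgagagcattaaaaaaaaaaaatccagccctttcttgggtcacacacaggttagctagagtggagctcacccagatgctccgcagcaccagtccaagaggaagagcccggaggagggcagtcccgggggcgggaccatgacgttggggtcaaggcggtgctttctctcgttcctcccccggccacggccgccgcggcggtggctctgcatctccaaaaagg
Pfkfb3: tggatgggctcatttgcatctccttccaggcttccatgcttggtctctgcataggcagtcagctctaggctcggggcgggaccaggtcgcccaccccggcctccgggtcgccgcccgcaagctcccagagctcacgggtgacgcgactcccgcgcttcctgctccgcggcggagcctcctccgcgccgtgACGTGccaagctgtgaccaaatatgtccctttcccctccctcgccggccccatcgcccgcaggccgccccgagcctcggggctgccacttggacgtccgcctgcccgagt
Hk1: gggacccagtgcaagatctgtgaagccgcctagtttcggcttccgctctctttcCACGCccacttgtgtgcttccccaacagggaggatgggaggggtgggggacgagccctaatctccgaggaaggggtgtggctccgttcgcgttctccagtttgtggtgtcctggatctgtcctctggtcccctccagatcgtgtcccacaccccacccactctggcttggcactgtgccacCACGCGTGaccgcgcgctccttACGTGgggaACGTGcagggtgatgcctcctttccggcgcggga

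The Egln3 and Pfkfb3 windows held 1 match each, and the Hk1 window held 5, while the window at the other annotated start of Hk1 held 0 and that at the other start of Pfkfb3 held 4. Of the 31 tested genes 28 had a promoter in the table, with 41 windows, of which 31 held a match (75.6%). Among the 7 genes whose sides did not overlap, 8 of 10 windows held one (80%). Over all tested genes the share was 62.6% (6422 of 10258 windows) and over all RefSeq windows 43.8% (14380 of 32851). The letters are short and common, CACGTG counts as the E-box as well, and a match is no evidence of binding.

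**Figure D3:**
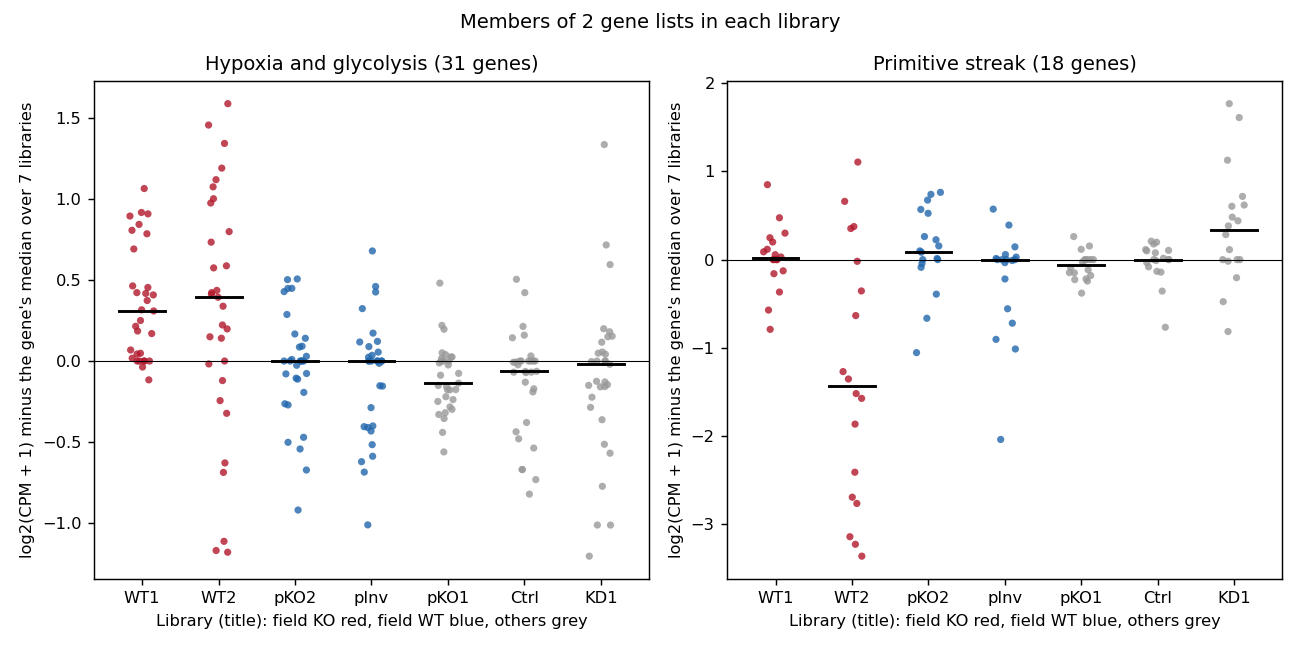
log2(CPM + 1) of each tested member, less that gene's median over the 7 libraries, for the hypoxia and glycolysis list (31 genes, left) and the primitive streak list (18 genes, right), with bars at the median of the members. In the left panel the medians of WT1 and WT2 are 0.31 and 0.39 and those of the other libraries at or below 0.00, and in the right panel WT2 stands alone at −1.43.

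No gene of the primitive streak and early mesoderm lists passed the test between the sides, and WT2 stood below WT1 in most of them. Of 22 listed streak genes 18 were tested and 0 passed, with 2 above 0, 16 below 0 and a median log2 difference of −0.18. The sides did not overlap in 2 with the field knockout lower (11.1%, where all tested genes gave 10.6%), Mesp1 and Sp8. The median of the members was 0.01 and −1.43 in the field knockout libraries, against 0.09 and 0.00 in the field wild-type libraries, so WT1 lay with the field wild type and WT2 far below. Without WT2 the median turned to 0.04, with 11 of 18 above 0, and without WT1 it was −1.29.

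T, the founder T-box gene, had 294 and 54.6 CPM in the field knockout libraries, against 353 and 178 CPM in the field wild-type libraries. Lhx1, a LIM homeobox factor of anterior mesendoderm, had 531.5 and 58.2 CPM in the field knockout libraries, against 884 and 258 CPM in the field wild-type libraries. Evx1, a homeobox factor of the posterior streak, had 145 and 36.0 CPM in the field knockout libraries, against 143 and 134 CPM in the field wild-type libraries. In all 3 the value of WT1 was above at least 1 field wild-type library and that of WT2 under both. Other members stayed level or leaned the other way in WT2: Wnt3, which induces the streak, had 78.3 and 72.6 CPM in the field knockout libraries, against 71.4 and 81.5 CPM in the field wild-type libraries, and Nodal, the ligand upstream of Eomes, 67.5 and 96.6 CPM in the field knockout libraries, against 71.0 and 99.3 CPM in the field wild-type libraries.

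In the list of nascent and paraxial mesoderm, 17 of 25 genes were tested and 0 passed, with 4 above 0, 13 below 0 and a median of −0.36. Mesp1 had 79.1 and 10.8 CPM in the field knockout libraries, against 127 and 82.3 CPM in the field wild-type libraries, a log2 difference of −1.17 (SE 0.67, adjusted p = 1 in edgeR's test). Frzb, a secreted Wnt antagonist, had 93.7 and 12.6 CPM in the field knockout libraries, against 119 and 115 CPM in the field wild-type libraries. The sides did not overlap in 3 of the 17 with the field knockout lower (17.6%, where all tested genes gave 10.6%), namely Mesp1, Frzb and Pcdh8, by gaps of 1.04-fold, 1.22-fold and 1.05-fold. Without WT1, with WT2 as the only field knockout library, the log2 differences of Mesp1 and Frzb were −3.17 and −3.12 and the list median was −1.21. Without pKO2 the list median was 0.03. WT2 was below both field wild-type libraries in 15 of 17 members (88.2%, where all tested genes gave 38.1%) and WT1 in 4 (23.5%, where all tested genes gave 29.0%). The lateral plate and cardiac mesoderm list, with 5 of 18 genes tested, 0 above 0, 5 below and 0 called, had a median of −0.41, which was 0.38 without pKO2. Its genes summed to 51.0 and 33.0 CPM in the field knockout libraries, against 64.8 and 52.6 CPM in the field wild-type libraries. The sums did not overlap, but WT1 and pInv differed little. The medians of the library pairs were of mixed sign, from −1.78 to 0.81. The 1 member whose sides did not overlap (20%, where all tested genes gave 10.6% lower) was Twist1, a helix-loop-helix factor of mesenchyme, at 4.12 and 1.80 CPM in the field knockout libraries, against 8.62 and 5.09 CPM in the field wild-type libraries.

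The definitive endoderm list had 6 of 17 tested genes above 0 and 11 below, with a median of −0.09 and 0 called. Foxa2, its pioneer factor, had 311 and 84.6 CPM in the field knockout libraries, against 204 and 152 CPM in the field wild-type libraries, which lay between the field knockout pair. Spink1, a trypsin inhibitor, was the member with the smallest p, at 4.5 and 3.0 CPM in the field knockout libraries, against 11.9 and 13.6 CPM in the field wild-type libraries, a log2 difference of −1.52 (SE 0.45, unadjusted p = 0.00771 and adjusted p = 1 in edgeR's test). Of the lists with a median below 0 in all 4 library pairs, the pluripotency list had a median of −0.06, with 10 of 22 genes above 0 and 12 below and 0 called. Its member with the smallest p was Fbxo15, at 6.75 and 4.80 CPM in the field knockout libraries, against 13.1 and 11.5 CPM in the field wild-type libraries. The other 3 such lists were cytoskeleton (median −0.12, 5 of 23 above 0), extraembryonic endoderm (median −0.15, 4 of 12 above 0) and FGF-ERK feedback (median −0.18, 6 of 16 above 0), each with 0 called.

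Imprinted genes went both ways, with 11 of 21 tested genes above 0, 10 below and a median of 0.03. The sides did not overlap in 5 with the field knockout lower (23.8%, where all tested genes gave 10.6%), namely Rian, Kcnq1ot1, Mcts2, Slc38a4 and Zdbf2, and in 2 with it higher (9.52%, where all tested genes gave 11.0%). Those 2 were Mest and Ndn. Mest had 14.2 and 12.6 CPM in the field knockout libraries, against 8.21 and 5.94 CPM in the field wild-type libraries, and Ndn 13.5 and 16.2 CPM in the field knockout libraries, against 9.03 and 7.21 CPM in the field wild-type libraries. Peg10 had 33.7 and 18.6 CPM in the field knockout libraries, against 57.4 and 31.8 CPM in the field wild-type libraries, and overlapped.

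Ribosomal protein genes had a median of −0.11, with 17 of 78 above 0, 61 below and 0 called. Their pair medians ran from −0.34 to 0.06, and the sides did not overlap in 5 with the field knockout lower (6.41%, where all tested genes gave 10.6%), namely Rpl10l, Rpl37a, Rps13, Rps19 and Rps25. Genes of oxidative phosphorylation split evenly, with 36 of 73 above 0, 37 below and a median of −0.01. The sides did not overlap in 9 of these with the field knockout higher (12.3%, where all tested genes gave 11.0%) and in 1 with it lower (1.37%, where all tested genes gave 10.6%). Atp5h, a subunit of ATP synthase, had 103 and 157 CPM in the field knockout libraries, against 71.0 and 83.2 CPM in the field wild-type libraries. The 1 lower gene was Sdha, a subunit of respiratory complex II, at 106 and 105 CPM in the field knockout libraries, against 128 and 151 CPM in the field wild-type libraries.

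**Figure D4:**
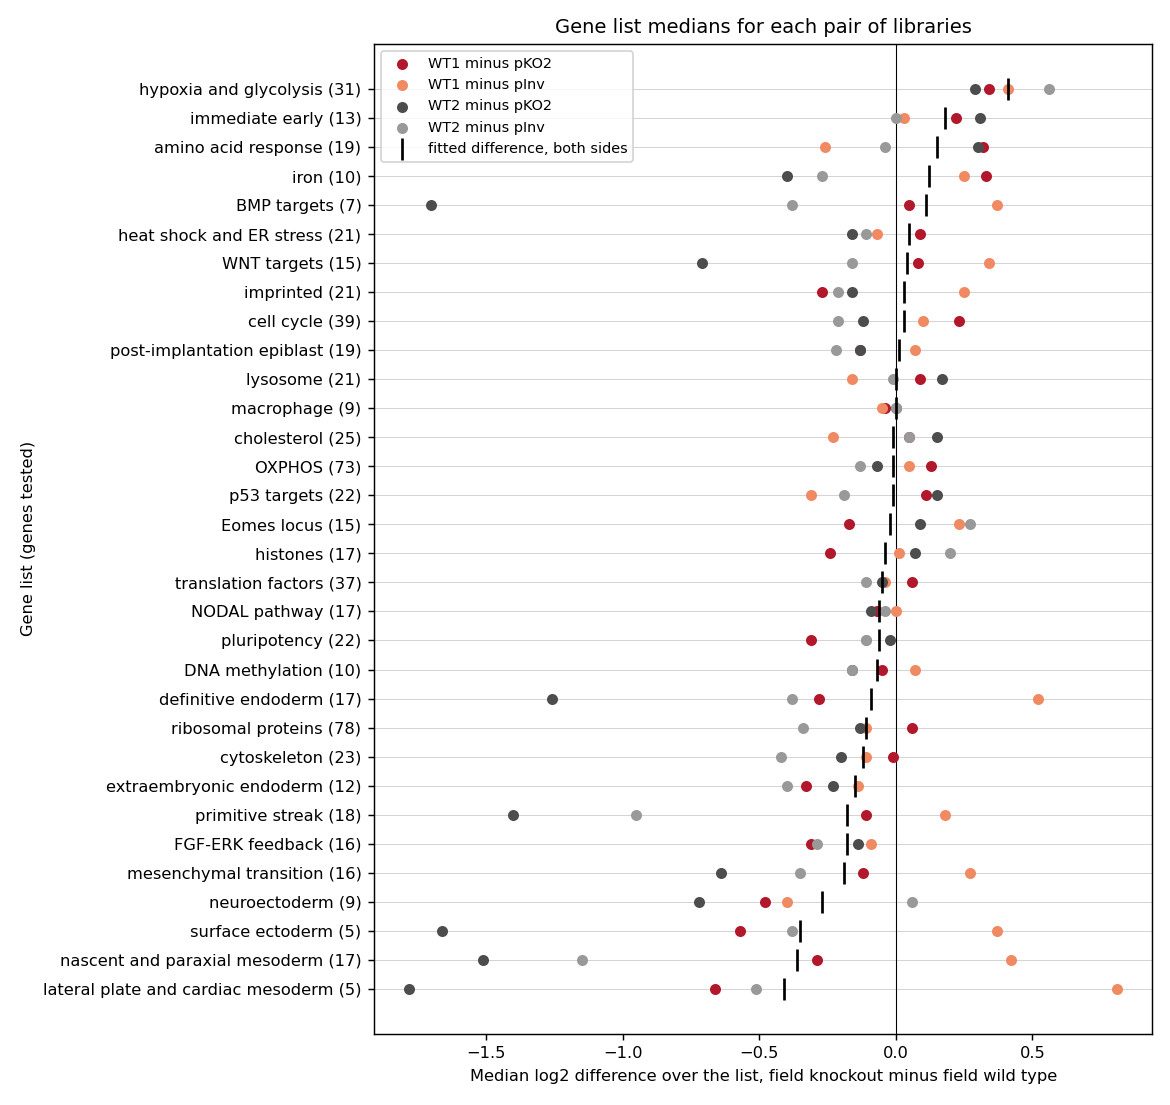
Median log2 difference, field knockout minus field wild type, over the tested genes of each of the 32 lists, with a dot for each of the 4 library pairs and a bar for the fitted difference. The hypoxia and glycolysis list has all its dots between 0.29 and 0.56, while the dots of the nascent and paraxial mesoderm list run from −1.51 (WT2 minus pKO2) to 0.42 (WT1 minus pInv).

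Markers of feeder, blood and macrophage cells were summed over each list, and the sums of the sides did not overlap for feeder and erythroid genes. Feeder fibroblast genes summed to 123 and 121 CPM in the field knockout libraries, against 116 and 88.3 CPM in the field wild-type libraries, with 4 and 5 of 15 genes at 0 in the field knockout libraries and 8 and 5 in the field wild-type libraries. Only 3 of the 15 entered the test. Most of each feeder sum was Fstl1, which overlapped, at 92.6 and 88.2 CPM in the field knockout libraries, against 91.1 and 66.6 CPM in the field wild-type libraries. Erythroid genes summed to 4.12 and 3.60 CPM in the field knockout libraries, against 0.821 and 2.55 CPM in the field wild-type libraries, few counts in all. Macrophage genes summed to 329 and 642 CPM in the field knockout libraries, against 396 and 381 CPM in the field wild-type libraries, with 10 and 12 of 17 genes at 0 in the field knockout libraries and 11 and 7 in the field wild-type libraries. Most of each macrophage sum was Ctsd, which is also on the lysosome list. Ctsd had 258 and 504 CPM in the field knockout libraries, against 293 and 293 CPM in the field wild-type libraries. C1qc came next, with 67.8 and 131 CPM in the field knockout libraries, against 93.1 and 77.7 CPM in the field wild-type libraries. Lyz2, the lysozyme of macrophages, was at or below 0.75 CPM in all 4. Of 9 tested macrophage genes 4 had a log2 difference above 0 and 2 below. The sides did not overlap in 2 with the field knockout lower (22.2%, where all tested genes gave 10.6%), Lgals3 and Ctss, both low. Lgals3, with the smallest p of the list, had 1.12 and 2.40 CPM in the field knockout libraries, against 6.57 and 4.67 CPM in the field wild-type libraries. The part of other cells in the results above was not tested. The most counted feature, which the tables give as NCBI gene 100861531, took 17.4% and 24.1% of the counts in the field knockout libraries, against 19.1% and 12.9% in the field wild-type libraries, and leaving it out gave 0 calls as well.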

How the data were processed

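Polyadenylated RNA of day 4 embryoid bodies was read with the Lexogen QuantSeq 3′ kit, per the labels' protocols. The authors deposited 1 RSEM table per library, made on mm9 per the submitters' processing notes (no version given). Expected counts were deposited per gene without normalization, per the file headers, and were rounded to whole numbers here. TPM values, scaled by the authors to length and to a fixed total, served in an alternative, and the deposited FPKM values were not used. No source used here states trimming, strand or duplicate handling, so overlapping genes cannot be told apart, and RSEM divides the reads of near-identical genes between them.

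Of 24990 features, 23447 were named as single genes through RefSeq, 375 as merged genes and 1132 as copies, 1 carried its own name and 35 stayed unnamed. The RefSeq tables are of GRCm38, another build than that of the files, and gave names, neighbours and promoter windows with their own coordinates.

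Libraries were grouped by the genotype field. Genes passing filterByExpr by group were fitted in edgeR 4.0.16 (R 4.3.3) with TMM scaling, 1 coefficient per group, all 7 libraries and no covariate (prior count 2, residual degrees of freedom 2, prior degrees of freedom 7.08, common biological coefficient of variation 0.301). Benjamini-Hochberg adjusted p under 0.05 was called. Alternatives used DESeq2 1.42.0, limma 3.58.1, other scalings and filters, and each of the 4 libraries left out. Gaps and library distances were computed on CPM + 1 at a mean of 20 CPM or more over the 4 libraries. Steps were tested on simulated counts. No 2 libraries were identical.

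The comparison and the 37 gene lists were chosen with earlier results of these data known. The text names Eomes, the 12 genes with the widest gap each way, up to 6 members of a described list with the smallest p, and 5 genes each way with the largest difference within a side. Further list members, Platr11, Meg3, Mirg, Gstp1, Spin2c and Lyz2 were chosen after their values were seen. List entries matched single features in 886 cases, merged ones in 14 and nothing in 8.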

Additional observations from a re-analysis of the deposited data

How the results depend on the processing

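Depth limits genes under about 1.80 CPM, and 2 libraries a side with WT2 far from WT1 limit every test. No paired analysis was possible because the labels give the 2 sides fewer than 2 shared replicate numbers.

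The 0 calls became 7 with no filter on low counts (1 higher and 6 lower in the field knockout) and 0 to 24 when a library was left out (0 to 1 higher, 0 to 23 lower), where a side of 1 library is assumed to vary like the side that keeps 2. They stayed at 0 with the 4 libraries alone, size factors of DESeq2's kind, library totals, the filter at 20 CPM, DESeq2, limma-voom, limma on TPM, without the most counted feature and with sides from the titles. Genes with a gap of 1.5-fold numbered 7 as reported, 62 at a mean of 5 CPM (36 higher and 26 lower), 3 at 50 CPM (1 and 2) and 19 with library totals (3 higher and 16 lower), while 1 gene had a 2-fold gap (0 higher and 1 lower). Library totals moved the median of all genes to −0.08.

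Leaving out a library turned the log2 difference of Eomes (−0.42 to 0.13), T (−2.26 to 0.14), Mixl1 (−3.07 to 0.54), Lhx1 (−3.27 to 0.20), Evx1 (−1.92 to 0.06), Sp5 (−1.50 to 0.35) and 4933432G23Rik (−0.36 to 0.62). List medians then ran from −1.29 to 0.04 for the primitive streak, −1.21 to 0.03 for nascent and paraxial mesoderm, −0.40 to 0.04 for imprinted genes, −0.27 to 0.05 for pluripotency and −0.25 to 0.03 for ribosomal proteins, and from 0.29 to 0.49 for hypoxia and glycolysis. The imprinted median was −0.22 at 20 CPM or more and −0.27 in limma-voom. The distance between WT1 and WT2 was 0.877 on TPM, an alternative chosen after seeing the data. The causes were not tested.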

Other observations

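Among lists not described above, neuroectoderm genes had a median log2 difference of −0.27, field knockout minus field wild type, with 3 of 9 tested genes above 0, 6 below and 0 called. Ncam1, a neural adhesion molecule, had 4.87 and 0.60 CPM in the field knockout libraries, against 8.62 and 8.06 CPM in the field wild-type libraries. Sox3, a SoxB1 factor of neural progenitors, had 5.62 and 3.60 CPM in the field knockout libraries, against 6.57 and 14.4 CPM in the field wild-type libraries. The sides did not overlap in 3 of the 9 (Ncam1, Sox3 and Tubb3) with the field knockout lower (33.3%, where all tested genes gave 10.6%). Tubb3 had only 0.75 and 0.60 CPM in the field knockout libraries, under the 1.12 and 1.80 CPM that 0 counts allow there. Ckb and Hesx1 leaned the other way, with log2 differences of 0.33 and 0.29, and overlapped. The medians of the library pairs were of mixed sign, from −0.72 to 0.06. At a mean of 20 CPM or more, 2 of 3 genes were above 0, with a median of 0.21.

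Genes of the amino acid response had a median of 0.15, with 14 of 19 above 0 and 0 called, and Ddit3, a stress-induced transcription factor, had 4.12 and 9.0 CPM in the field knockout libraries, against 3.28 and 2.55 CPM in the field wild-type libraries. At a mean of 20 CPM or more the median of this list was 0.03, with 5 of 10 genes above 0. Without pKO2 the list median was −0.15, and the medians of the library pairs ran from −0.26 to 0.32. WNT targets had a median of 0.04, with 8 of 15 above 0, and p53 targets a median of −0.01, with 10 of 22 above 0. Perp, a p53 target of desmosomes, had 15.0 and 6.60 CPM in the field knockout libraries, against 22.2 and 19.1 CPM in the field wild-type libraries. Mdm2, the ubiquitin ligase of p53, had 78.7 and 51.0 CPM in the field knockout libraries, against 62.4 and 137 CPM in the field wild-type libraries, and overlapped. Fn1, which encodes fibronectin, had 125 and 31.8 CPM in the field knockout libraries, against 269.6 and 102 CPM in the field wild-type libraries, and overlapped as well.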
